A study of Mus musculus with 66 samples.

Results

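The 33 genes described here are 16 regulators and targets of the hypoxia-inducible factor (HIF) and 17 genes of glycolysis, chosen by gene symbol from the 24410 genes of one expression table. All 33 were in the table and all 33 passed the filter for testing, a normalised read count of at least 10 in at least 2 libraries. The table covers mouse embryonic stem cells that were differentiated in culture into progenitors of the ventral spinal cord, sampled on days 5, 7, 9 and 11 (D5 to D11). Cells were plated in bFGF (10 ng/ml), given the GSK3β inhibitor CHIR99021 (5 µM) on day 2, then retinoic acid (RA, 100 nM) from day 3 to day 5 and the Smoothened agonist SAG (10 nM) from day 3 onwards. They were fixed in glyoxal, stained inside the cell and sorted, 10000 to 15000 per population, and polyadenylated RNA was sequenced.

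The 66 libraries are 37 labelled WT and 29 labelled MUT, and the labels name neither the mutated gene nor the clone. Each library comes from one of 3 sorted domains, p1 (called p0-p1 in the series' text), p2 and pM (called pMN there), and from one of 2 gates on NFIA, written NFIAn and NFIAp. All MUT libraries and all WT libraries of D5 and D7 are NFIAn, WT D9 holds both gates in p2 and pM and NFIAn alone in p1, and WT D11 is NFIAp alone. Of the 26 groups by genotype, day, domain and gate, 15 hold 3 libraries, 10 hold 2 and 1 holds 1 (MUT D9 p2, replicate 3). D11 holds replicates 2 and 3 alone in both genotypes. Whether replicate numbers stand for separate cultures is not in the labels. The p-values therefore cover only the spread between these libraries, which may be partly technical.

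HIF is a pair of proteins, an oxygen-regulated alpha subunit (encoded by Hif1a or Epas1) and the constant partner ARNT. In the presence of oxygen the prolyl hydroxylases, encoded by Egln1, Egln2 and Egln3, mark the alpha subunit for destruction through the VHL protein, so that HIF activity is set largely at the level of protein and not of Hif1a RNA. When oxygen is low, HIF binds short DNA elements with the core RCGTG and raises genes of glucose uptake, glycolysis, angiogenesis and mitophagy. Glycolysis turns glucose into pyruvate, which lactate dehydrogenase converts to lactate and back. Embryonic stem cells and early neural progenitors rely heavily on glycolysis, and differentiation is known to change the isozymes in use.

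The deposited value is a read count divided by a size factor of its library, called here the normalised count, and a level per kb is that count per kilobase of exon. Differences are log2 differences of (normalised count + 1), averaged over domains, from limma with Benjamini-Hochberg adjustment over the 15714 genes tested, and a gene was called at an adjusted p under 0.05. Recovered reads numbered 8.738 M in one library (MUT D5 p2 replicate 2) and 20.29 to 30.83 M in the others. Summed markers of each domain had their highest median in the libraries of that domain. The p1 markers lay between 4730 and 16098 in p1 and at most 3170 elsewhere, and the pM markers between 1233 and 8898 in pM and at most 211 elsewhere. The p2 markers ranged from 50.2 to 3043 in p2 and reached 241 in pM, so that they overlapped. In 18 libraries (D7 replicate 3, D9 replicates 2 and 3) the deposited values summed to between 26.59 and 40.23 M, and in the remaining 48 to between 17.85 and 25.5 M. The libraries of D11 replicate 3 stood apart from those of D11 replicate 2 in many of these genes, and the members' calls that end without them or without the 18 libraries are given below.

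The promoters of 5 members on which the results turn are shown first: Bnip3, Egln3 and Ldhb, which rose most from D5 to D11 in WT, Slc2a1, which fell most, and Ldha, the partner isozyme of Ldhb. Each line is the strand of the gene, 5′ to 3′, from 250 bases before to 50 bases after its start in RefSeq (build GRCm38.p6). Capitals mark the HIF core elements, ACGTG or GCGTG on either strand (CACGT and CACGC when read on the printed strand). Bnip3 lies on the minus strand at chr7:138909457-138909756, Egln3 on the minus strand at chr12:54203825-54204124, Slc2a1 on the plus strand at chr4:119108495-119108794, Ldha on the plus strand at chr7:46845554-46845853 and Ldhb on the minus strand at chr6:142507908-142508207.
Bnip3: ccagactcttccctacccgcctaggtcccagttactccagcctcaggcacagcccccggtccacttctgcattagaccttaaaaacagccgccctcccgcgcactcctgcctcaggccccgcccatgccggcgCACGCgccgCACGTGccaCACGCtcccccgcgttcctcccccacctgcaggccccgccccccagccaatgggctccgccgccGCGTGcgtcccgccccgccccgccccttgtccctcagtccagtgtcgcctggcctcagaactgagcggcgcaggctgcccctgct
Egln3: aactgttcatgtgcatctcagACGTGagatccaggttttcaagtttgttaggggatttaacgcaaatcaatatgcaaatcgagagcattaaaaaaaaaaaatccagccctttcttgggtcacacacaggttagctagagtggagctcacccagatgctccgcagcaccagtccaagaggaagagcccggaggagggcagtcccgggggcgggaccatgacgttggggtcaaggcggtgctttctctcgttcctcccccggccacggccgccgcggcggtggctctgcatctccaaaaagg
Slc2a1: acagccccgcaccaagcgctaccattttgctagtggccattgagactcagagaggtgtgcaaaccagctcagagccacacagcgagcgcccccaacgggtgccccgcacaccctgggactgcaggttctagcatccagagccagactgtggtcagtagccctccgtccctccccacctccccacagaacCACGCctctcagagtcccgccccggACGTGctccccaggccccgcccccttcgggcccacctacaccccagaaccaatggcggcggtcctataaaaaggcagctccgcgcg
Ldha: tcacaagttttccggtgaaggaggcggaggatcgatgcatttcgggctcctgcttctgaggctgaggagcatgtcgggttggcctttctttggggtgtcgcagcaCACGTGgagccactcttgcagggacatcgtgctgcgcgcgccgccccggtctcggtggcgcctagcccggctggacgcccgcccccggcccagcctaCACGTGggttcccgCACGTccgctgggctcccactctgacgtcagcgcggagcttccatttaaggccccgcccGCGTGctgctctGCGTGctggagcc
Ldhb: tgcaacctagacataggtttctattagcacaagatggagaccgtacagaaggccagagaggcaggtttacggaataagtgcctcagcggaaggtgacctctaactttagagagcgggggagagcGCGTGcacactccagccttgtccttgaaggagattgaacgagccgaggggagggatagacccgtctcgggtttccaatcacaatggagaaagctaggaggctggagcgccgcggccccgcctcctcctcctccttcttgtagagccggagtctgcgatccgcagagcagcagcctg
The Ldha window holds 5 ACGTG matches counted over both strands, where the palindrome CACGTG counts as 2, and the Bnip3 window holds 2 matches of ACGTG and 3 of GCGTG. Slc2a1 has 1 of each, Egln3 has 1 ACGTG at 229 bases before its start, and Ldhb has no ACGTG and 1 GCGTG at 126 bases before its start. ACGTG occurred in 6439 of all 32817 promoter windows of this length (19.6%), in 10 of 17 windows of the HIF genes (58.8%) and in 14 of 28 windows of the glycolytic genes (50%). Either element occurred in 43.8% of all windows, in 13 of the 17 (76.5%) and in 22 of the 28 (78.6%). The windows cover 30 of the 33 members, several with more than 1 start, and Epas1, Ndrg1 and Slc2a3 were not matched. A match describes these letters and is not a measured binding site.

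Among the regulators, Hif1a RNA moved little. In WT its normalised count had a lowest, median and highest value of 1263, 1700 and 1988 at D5 and of 1252, 1429 and 2090 at D11. These ranges overlap, and the log2 difference was -0.14 ± 0.12 (SE, adjusted p = 0.36). In MUT the values were 1553, 1998 and 2403 at D5 and 1176, 1581 and 3031 at D11. Hif1a was called in no comparison between days, gates or genotypes in this model. Epas1, the other alpha subunit, was at 0 in 26 libraries and at most 25.1 in any. Per kb of exon, Hif1a averaged 259 ± 53.9 (SD, n = 6) in WT D11, and Egln1, the main oxygen sensor of the family, averaged 307 ± 61.4.

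Egln3, a hydroxylase that is itself a HIF target, had the largest called rise among the members from D5 to D11 in WT. Its values in WT NFIAn libraries had a lowest, median and highest of 21.1, 66.8 and 144 at D5, of 140, 230 and 457 at D7 and of 312, 462 and 846 at D9, and WT NFIAp libraries gave 650, 1854 and 2800 at D11. No D11 library overlapped the D5 range, and the mean was 21.7-fold higher (log2 4.44 ± 0.22, adjusted p = 5.7e-22). It rose in each interval, by 1.73 ± 0.20 from D5 to D7, by 1.15 ± 0.20 from D7 to D9 and, in NFIAp libraries of p2 and pM, by 1.32 ± 0.26 from D9 to D11 (adjusted p = 4e-04). As a share of the family's counts per kb (Egln1, Egln2 and Egln3), Egln3 went from a median of 2.86% (0.941 to 5.2%) in WT D5 to 34.1% (13.6 to 44.7%) in WT D11. Egln1 rose slightly from D5 to D11 (0.44 ± 0.14, adjusted p = 0.0089).

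The first step of WT differentiation, D5 to D7 within NFIAn, carried 4 HIF genes up and 3 down of 16, against 10.0% higher and 9.51% lower over all genes tested. The median difference of the 16 was -0.05, against -0.02 over all genes. Bnip3, a mitochondrial protein that drives mitophagy, rose 2.43-fold (1.28 ± 0.18, adjusted p = 3.9e-07), from 1535, 1842 and 2119 (lowest, median, highest) to 3623, 4615 and 5525. The lowest D7 library lay above the highest D5 library. Egln3 rose as described above, and Kdm3a, a histone demethylase, and Ankrd37 rose by 0.46 ± 0.15 (adjusted p = 0.023) and 1.13 ± 0.38 (adjusted p = 0.028). Those last calls end when any of 5 and any of 7 libraries are left out (adjusted p up to 0.093 and 0.082).

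The glucose transporters moved the other way in the same step. Slc2a1 encodes GLUT1, the main glucose importer of many embryonic cells, and fell from 12655, 23625 and 31304 at D5 to 9510, 11780 and 23137 at D7 (-0.75 ± 0.15, 1.68-fold, adjusted p = 0.00026). These ranges overlap across domains. Slc2a3 encodes the high-affinity transporter GLUT3 and fell 4.37-fold, from 1160, 1298 and 1884 to 105, 323 and 611 (-2.13 ± 0.40, adjusted p = 7.3e-05), with no overlap. Car9, a carbonic anhydrase and a classic hypoxia marker, was low throughout, between 0 and 13.7 at WT D5 and at 0 in all 9 WT D7 libraries (adjusted p = 0.0025). Its adjusted p was 0.056 when libraries of one genotype, day and number were allowed to correlate. The growth factor Vegfa (-0.18, adjusted p = 0.62) and Pdk1 (-0.11, adjusted p = 0.79), the kinase that keeps pyruvate out of the mitochondrion, were not called.

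From D7 to D9 within WT NFIAn libraries, 1 of 16 HIF genes was higher and 4 were lower, against 6.30% and 8.09% over all genes. Slc2a1 fell again, 3.05-fold, to 2895, 4656 and 6484 (-1.61 ± 0.15, adjusted p = 4e-11), and here every D9 library lay below every D7 library. Vegfa fell 2.24-fold, from 584, 810 and 1030 to 238, 340 and 587 (-1.16 ± 0.22, adjusted p = 0.00014), and the ranges overlap at their edges. Slc2a3 (-1.22 ± 0.40, adjusted p = 0.03) and P4ha2, a collagen prolyl hydroxylase (mean 321.2 to 159.1, adjusted p = 0.028), also fell, and these calls end when any of 9 and any of 8 libraries are left out (adjusted p up to 0.1 and 0.11) and also without the 18 libraries with high totals (adjusted p = 0.2 and 0.18). Bnip3 was not called (0.15, adjusted p = 0.64), with 3694, 4917 and 7984 at D9, nor were Hif1a (-0.22, adjusted p = 0.2) and Pdk1 (0.10, adjusted p = 0.82).

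**Figure D1:**
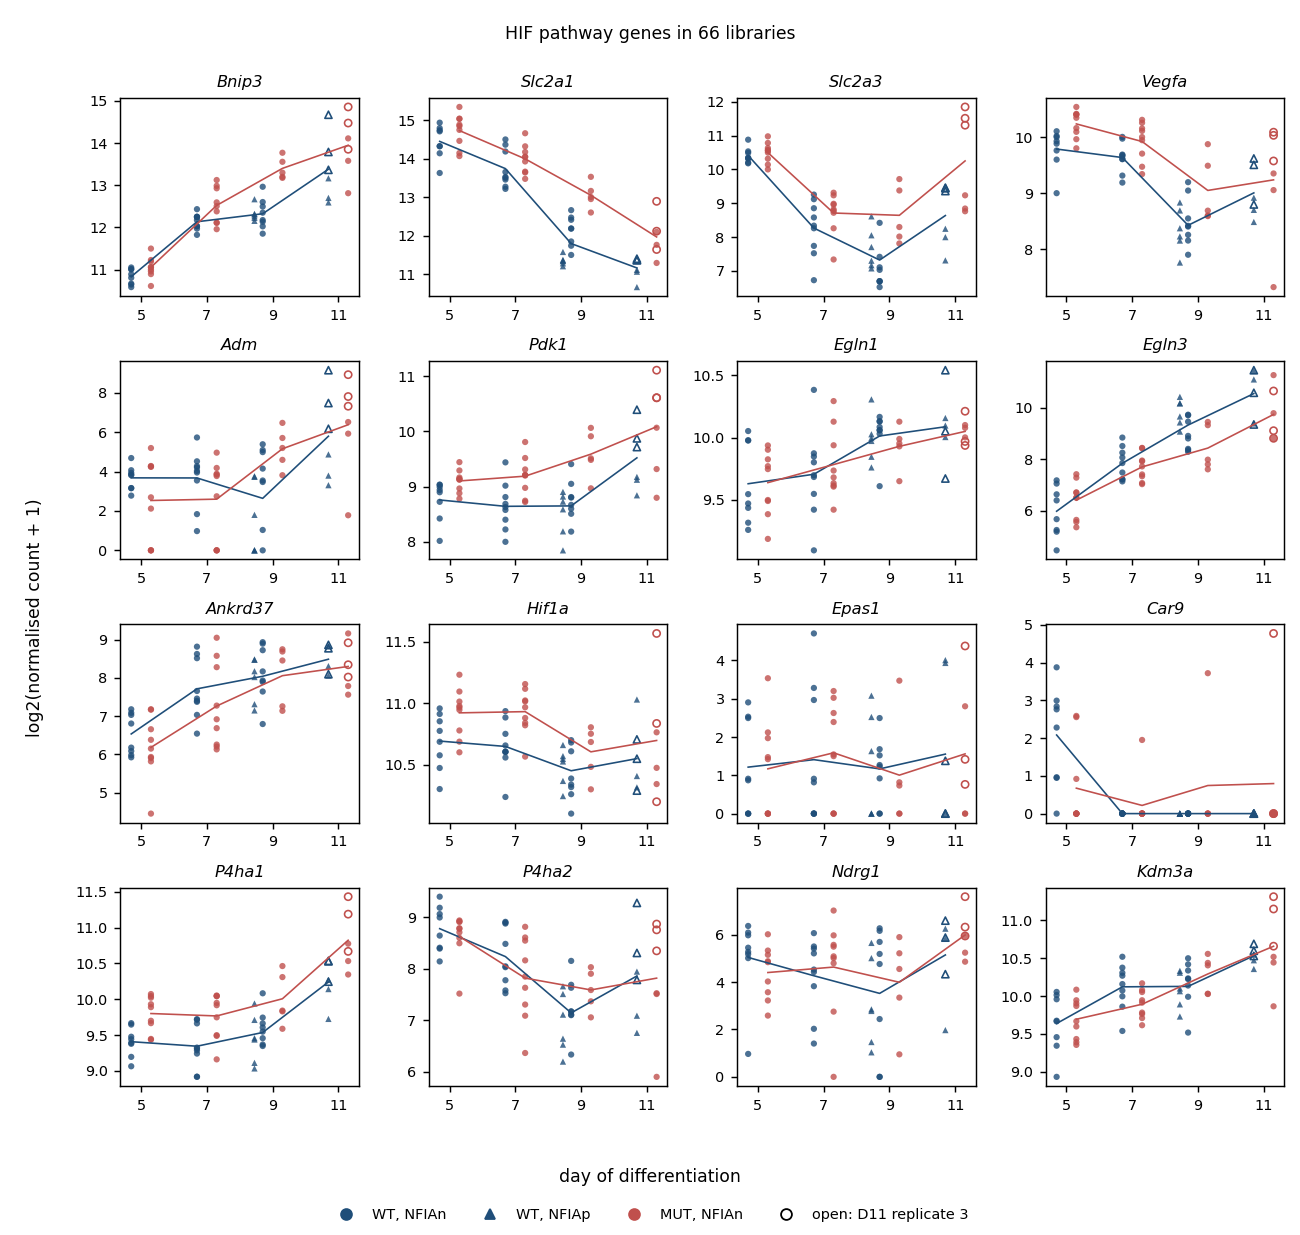
Normalised counts of HIF regulators and targets in every library against day, on a log2(normalised count + 1) axis, with WT in blue, MUT in red, NFIAn as circles, NFIAp as triangles and D11 replicate 3 as open symbols; lines join the mean of log values per genotype and day (both gates at WT D9). Slc2a1 falls from D5 to D9, Bnip3 and Egln3 are higher at D11 than at D5, Hif1a spans 1252 to 2090 at WT D11 against 1263 to 1988 at D5, and the highest Bnip3 value at D11 is an open symbol in each genotype.

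Between D9 and D11 the comparison within one gate uses WT NFIAp libraries of p2 and pM, 6 at D9 and 4 at D11. Here 5 of 16 HIF genes were higher and none lower, against 6.16% higher and 3.98% lower over all genes. The 16 had a median difference of 0.64, against 0.05 over all genes. Bnip3 rose 1.73-fold (0.79 ± 0.24, adjusted p = 0.023), Egln3 2.49-fold, P4ha1, another collagen prolyl hydroxylase, by 0.74 ± 0.21 (adjusted p = 0.016) and Pdk1 by 0.89 ± 0.30 (adjusted p = 0.044). Adm encodes the vasodilator peptide adrenomedullin and went from a mean of 4.57 to 71.7 (adjusted p = 0.024). Vegfa (0.74, adjusted p = 0.095) and Slc2a1 (-0.23, adjusted p = 0.51) were not called.

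These D11 rises depend on which D11 libraries are used. Replicate 2 and replicate 3 of WT D11 gave Bnip3 at 9176 and 26065 in p1, 6171 and 14142 in p2, and 6646 and 10541 in pM. MUT gave 17673 and 29628 in p1, 12226 and 22745 in p2, and 7183 and 14779 in pM. Replicate 3 was higher in all 6 groups. Slc2a3 was 303, 158 and 255 in replicate 2 of WT (p1, p2, pM) and 704, 696 and 657 in replicate 3. In MUT it was 434, 459 and 602 against 3685, 2922 and 2535.

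Of the 33 members, 13 were higher in replicate 3 in all 6 groups and 2 were lower, against 9.63% and 9.47% of all genes. The 13 are 7 HIF genes (Bnip3, Slc2a1, Slc2a3, Adm, Pdk1, P4ha2 and Kdm3a) and 6 glycolytic genes (Pfkl, Pfkp, Pgk1, Pgam1, Pfkfb3 and Slc16a3). The median log2 gap over the 6 groups was 3.29 (1.30 to 5.54) for Adm, 2.10 (1.21 to 3.08) for Slc2a3, 1.16 (0.70 to 1.81) for Pdk1 and 0.97 (0.67 to 1.51) for Bnip3. The 2 lower members were Gapdh, at -0.61 (-1.23 to -0.08), and Ldhb, at -0.58. Summed astroglial markers were lower in replicate 3 in both genotypes, 71705 to 78162 against 145250 to 186993 in WT and 21976 to 24260 against 46380 to 79095 in MUT. Aldoc, which is among these markers, did not follow the sum in each domain. In WT it was 3221 against 3164 in p1, 5048 against 7321 in p2 and 1750 against 1640 in pM. Neural progenitor markers were lower too, 23454 to 27959 against 30854 to 49982 in WT and 14384 to 27173 against 29293 to 41806 in MUT. The mesenchymal markers, 6 genes, summed to 2743 to 5954 against 1138 to 3283 in WT and to 3374 to 5055 against 744 to 3039 in MUT. Cell-cycle genes summed to 29611 to 38161 against 17881 to 29862 in WT and, the other way, to 27684 to 34112 against 33428 to 46053 in MUT. The part of these markers and cell-cycle genes in the gap was not tested. In bulk RNA fewer cells of a type and less RNA per cell cannot be told apart.

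With D11 replicate 3 left out, an alternative added after the gap was seen, Egln3 alone of the 6 members that rose from D9 to D11 in WT remained called (1.44, adjusted p = 0.0041). Bnip3 then stood at 0.32 (adjusted p = 0.51), Adm at 2.54 (adjusted p = 0.36), Pdk1 at 0.50 (adjusted p = 0.43), P4ha1 at 0.55 (adjusted p = 0.26) and Hk1 at 1.16 (adjusted p = 0.47). Each of these 5 calls ends when any of 3 to 5 single libraries is left out. Without WT D11 p2 replicate 3 or WT D11 pM replicate 3, 1 member was called in place of 6. Without WT D9 pM replicate 2 there were 2, and without WT D9 p2 replicate 3 there were 3, all NFIAp.

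**Figure D2:**
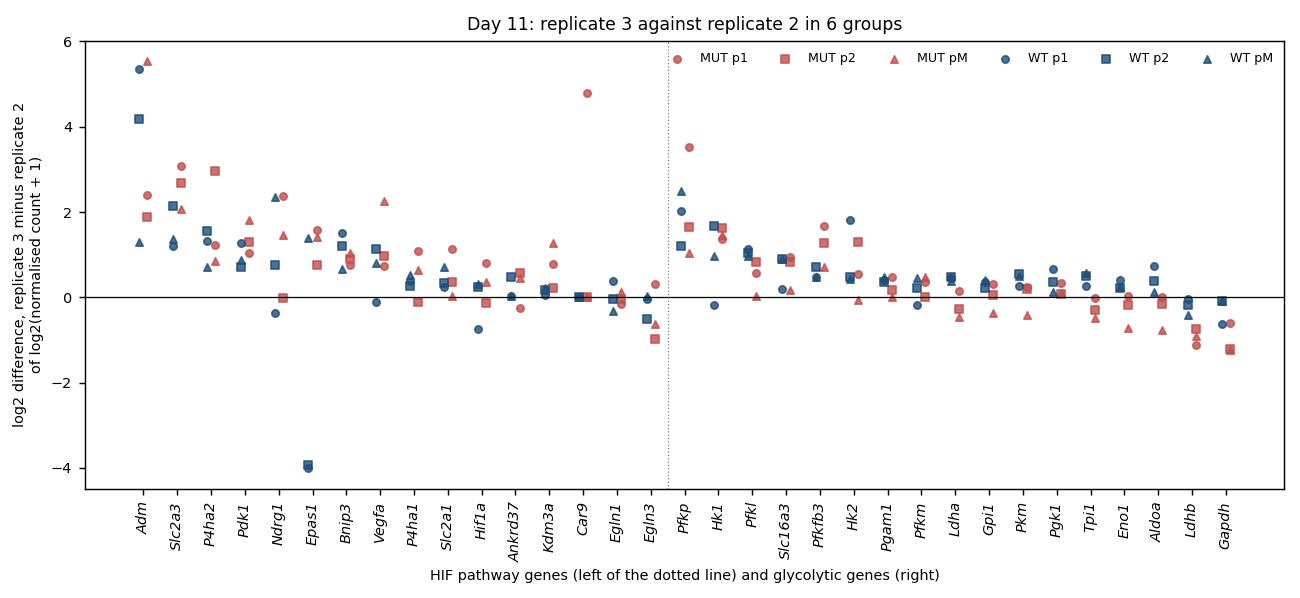
Log2 difference between replicate 3 and replicate 2 at D11 for each member, one point for each of the 6 groups of genotype and domain. Adm, Slc2a3, Pdk1 and Bnip3 lie above 0 in all 6 groups, Gapdh and Ldhb below 0 in all 6.

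Over the whole WT course, D5 to D11, day and gate cannot be told apart, since D5 is NFIAn and D11 is NFIAp. Of 16 HIF genes 7 were higher and 5 lower, against 25.1% and 22.8% over all genes, with a median difference of 0.39 (0.04 over all genes). The list therefore split. Slc2a1 fell 10.0-fold (-3.33 ± 0.17, adjusted p = 1.4e-21), to 1623, 2426 and 2706 at D11, all below the lowest D5 library. Slc2a3 (-1.76 ± 0.44, adjusted p = 0.00084), Vegfa (-0.81 ± 0.24, adjusted p = 0.0051), P4ha2 (-0.88 ± 0.36, adjusted p = 0.039) and Car9 were also lower. Bnip3 rose 5.76-fold (2.53 ± 0.20, adjusted p = 6.3e-15), Ankrd37 3.74-fold (1.90 ± 0.42), Kdm3a by 0.87 ± 0.17, P4ha1 by 0.83 ± 0.18 and Pdk1 by 0.77 ± 0.25 (adjusted p = 0.0092). Without D11 replicate 3, Bnip3 (1.97), Egln3 (4.53) and Slc2a1 (-3.54) remained called, and Pdk1 (0.30, adjusted p = 0.35) and Egln1 (adjusted p = 0.051) did not. The P4ha2 call ends when any of 9 libraries is left out (adjusted p up to 0.19), and the Pdk1 call without WT D11 p1 replicate 3 or WT D11 pM replicate 3 (adjusted p up to 0.08).

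Other values moved over the same days. The 9 stress-response genes summed to 66886 to 97091 in WT D5 and to 22230 to 26693 in WT D11, with 8 of 9 lower in the test. The 8 cell-cycle genes summed to 67828 to 86395 in WT D5 and to 17881 to 38161 in WT D11, and all 8 were lower. Astroglial markers went from 5867 to 14049 up to 71705 to 186993, and neuronal markers from 1212 to 12321 up to 17235 to 31090. The 6 mesenchymal markers went from 106 to 425 up to 1138 to 5954, with 5 of 6 called higher and a median difference of 3.55. Over all genes tested, 25.1% were called higher and 22.8% lower from WT D5 to D11. The 6 endothelial markers never summed to more than 225 in any library. The part of these in the changes of the 33 members was not tested.

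Of the 17 glycolytic genes, only Ldhb was called higher and only Hk2 lower from WT D5 to D7, against 10.0% and 9.51% of all genes. From D7 to D9 only Ldhb was called, as higher, against 6.30% of all genes (8.09% lower). The medians of the 17 were 0.12 and 0.01, against -0.02 and -0.03 over all genes. From D5 to D11, 7 were higher and 1 was lower, against 25.1% and 22.8% of all genes, with a median of 0.40 against 0.04. Of the 7, the rise of Ldhb (3.94 ± 0.20) and of Pfkfb3 (1.30 ± 0.24, adjusted p = 1.2e-05) passed 2-fold, and the other 5 lay between 0.32 and 0.82.

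At the entry to the pathway, Hk2, a hexokinase that traps glucose in the cell, fell 1.67-fold from D5 to D7 (-0.74 ± 0.21, adjusted p = 0.0086) and 2.04-fold from D5 to D11 (-1.03 ± 0.23, adjusted p = 0.00024). Its values were 1233, 1876 and 2873 at D5 and 554, 791 and 2948 at D11, where 1 library lay above the whole D5 range. Hk1, the other hexokinase of the list, rose from a mean of 156.1 to 521.1 between D9 and D11 within NFIAp (1.82 ± 0.58, adjusted p = 0.033), a call that ends without D11 replicate 3. Hk1 was the smaller part of the pair, with a median of 10.6% (3.62 to 20.1%) of the counts per kb of both at WT D5 and 25.6% (4.22 to 40.4%) at WT D11. Gpi1, which turns glucose phosphate into fructose phosphate, rose by 0.40 ± 0.13 over D5 to D11 (adjusted p = 0.011). Pfkl, the liver-type phosphofructokinase, made up most of its family, 75.9% (70.4 to 78.7%) per kb at WT D5, and was called in no WT step.

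Pfkfb3 makes fructose 2,6-bisphosphate, the activator of phosphofructokinase, and went from 224, 282 and 341 at WT D5 to 537, 712 and 877 at WT D11. No D11 library overlapped the D5 range. Further down the pathway Tpi1, which interconverts the triose phosphates, rose by 0.82 ± 0.22 (adjusted p = 0.002), Pgk1, which makes the first ATP, by 0.44 ± 0.14 (adjusted p = 0.0068) and Pgam1 by 0.32 ± 0.13 (adjusted p = 0.035) from D5 to D11. Pkm (-0.43 ± 0.20, adjusted p = 0.078) and Ldha (0.51 ± 0.24, adjusted p = 0.069) were not called. Without D11 replicate 3 the calls of Gpi1, Tpi1 (adjusted p = 0.089), Pgk1 (adjusted p = 0.23), Pgam1 (adjusted p = 0.57) and Slc16a3 (adjusted p = 0.25) end, those of Ldhb (4.04) and Pfkfb3 hold, and Pkm becomes called. The Gpi1 call also ends without WT D11 pM replicate 3 alone (adjusted p = 0.055) and the Pgk1 call without WT D11 p1 replicate 3 alone (adjusted p = 0.06). The Pgam1 call ends when any of 6 single libraries is left out.

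Lactate dehydrogenase showed the largest change among the enzymes. Ldha encodes the muscle-type subunit, whose tetramer favours making lactate, and Ldhb the heart-type subunit, whose tetramer favours using it. Ldhb values (lowest, median, highest) in WT were 1217, 1807 and 2827 at D5, 4748, 6565 and 13894 at D7, 12898, 16041 and 23371 at D9 NFIAn, 15396, 18984 and 19780 at D9 NFIAp and 21799, 28770 and 33864 at D11. D5, D7 and D11 did not overlap with each other, and the rise was 4.07-fold from D5 to D7 (2.02 ± 0.18, adjusted p = 2.1e-12), 2.26-fold from D7 to D9 (1.18 ± 0.18, adjusted p = 3.8e-06) and 15.3-fold from D5 to D11. Ldha stayed between 30919 and 80639 over all WT libraries, with medians of 39735 at D5 and 53224 at D11. As a share of the counts per kb of both, Ldhb went from a median of 9.08% (6.6 to 12.7%) at WT D5 to 28.9% (21.5 to 33.4%) at D7, 41.2% (32.7 to 49.2%) at D9 NFIAn and 52.5% (40.9 to 66.2%) at D11.

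The carriers that export lactate changed in the same libraries. Slc16a3 encodes MCT4 and rose by 0.61 ± 0.17 from D5 to D11 (adjusted p = 0.0035), while Slc16a1, which encodes MCT1 and is no member, fell from a mean of 4596 to 746.5 (-2.72 ± 0.13, adjusted p = 4.3e-22). The share of Slc16a3 in the counts per kb of both went from 20% (13.1 to 20.7%) at WT D5 to 71.2% (57.7 to 77.8%) at WT D11. Among aldolases, Aldoc, a gene of astroglia and neurons and no member, rose from 409.5 to 3939 within NFIAp between D9 and D11 (3.13 ± 0.29, adjusted p = 9.5e-11) and stood at 12.2% (8.41 to 28.7%) of Aldoa and Aldoc per kb at WT D11. Eno1 shares its reads with the near-identical copy Eno1b, which took counts in a nearly constant ratio, and Gapdh has many processed copies, so that both levels are uncertain.

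**Figure D3:**
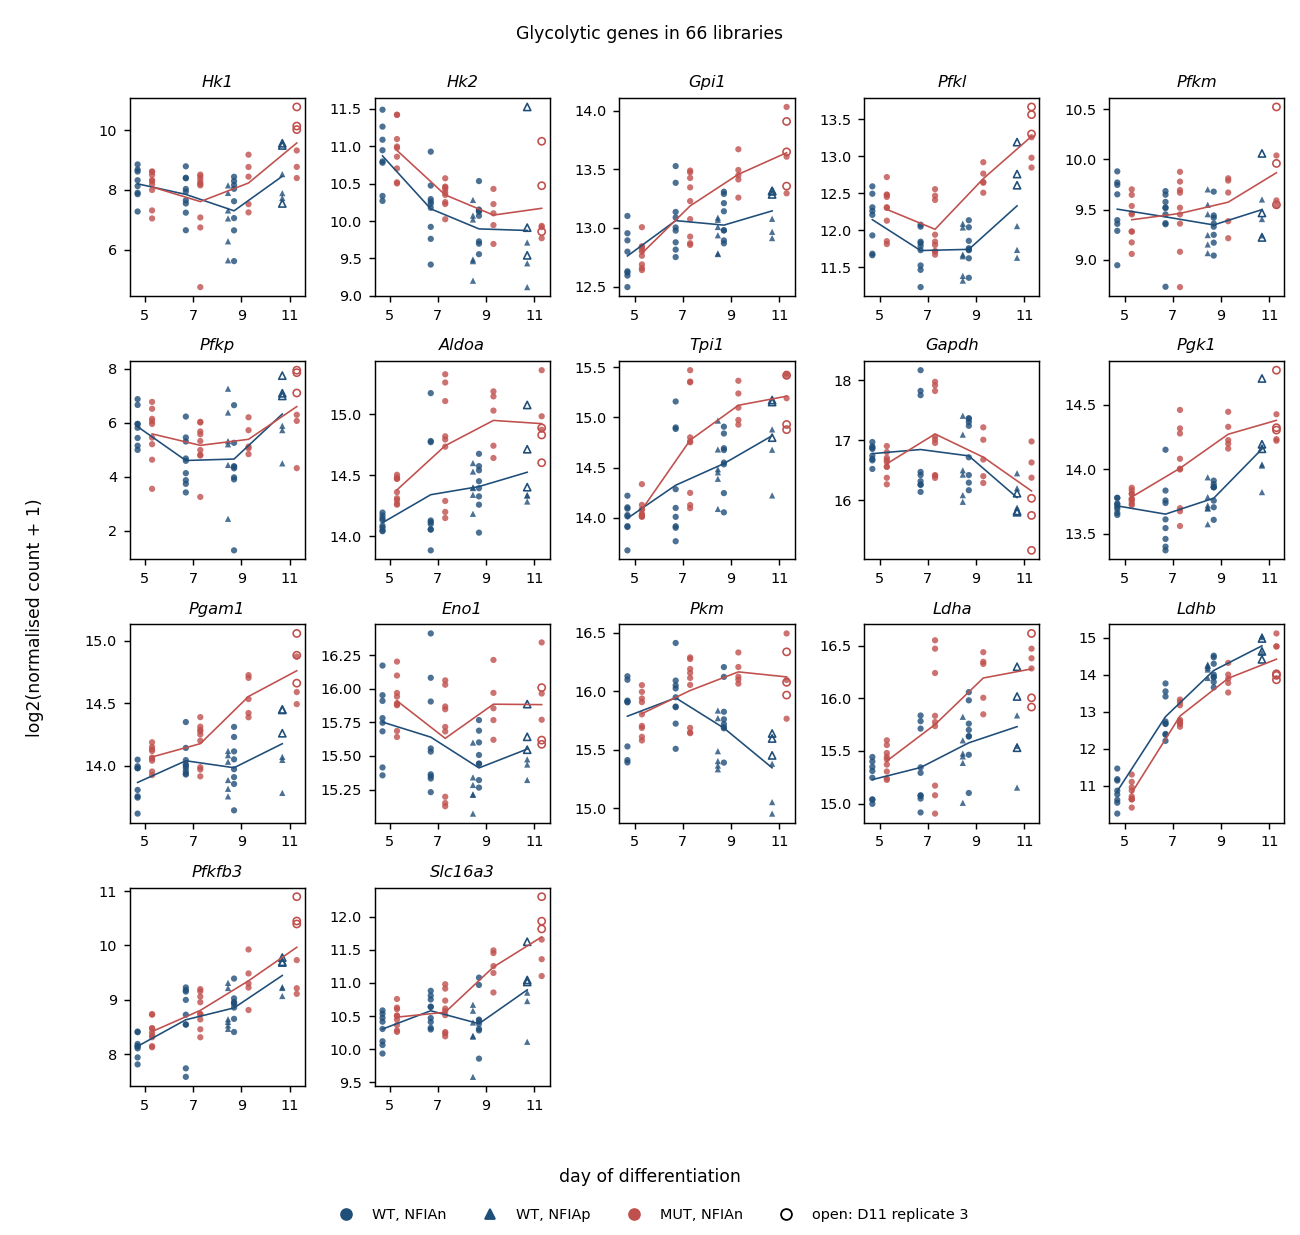
Normalised counts of glycolytic genes in every library against day on a log2(normalised count + 1) axis, WT blue, MUT red, NFIAn circles, NFIAp triangles, D11 replicate 3 open, with lines through the mean of log values per genotype and day. Ldhb climbs from D5 to D11 in both genotypes, and Gapdh shows 3 libraries of each genotype far above the rest at D7.

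**Figure D4:**
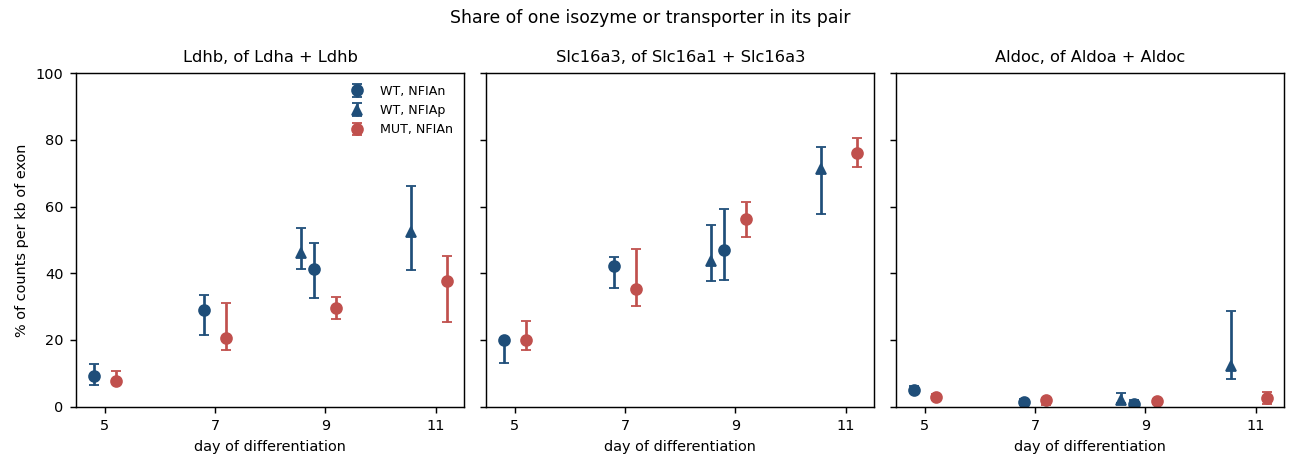
Share of Ldhb in Ldha and Ldhb, of Slc16a3 in Slc16a1 and Slc16a3, and of Aldoc in Aldoa and Aldoc, in percent of counts per kb. Points are the median by genotype, day and gate, with the lowest and highest library. The Ldhb share rises from 9.08% at WT D5 to 52.5% at WT D11 and reaches 37.8% at MUT D11, and the Slc16a3 share has medians of 71.2% at WT D11 and 76.1% at MUT D11.

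The libraries with high totals move several of these values. At D7, Gapdh was 231374, 220196 and 293940 in replicate 3 of WT (p1, p2, pM) and 257067, 231164 and 246536 in replicate 3 of MUT, and between 71989 and 136463 in all replicates 1 and 2. Of the 33 members, 8 were above and 5 below all other WT D7 libraries in replicate 3, where 18.5% of all genes lay above and 14.2% below. In MUT 9 were above and 4 below, against 16.5% and 11.4% of all genes. The 8 are Ankrd37, Gpi1, Aldoa, Tpi1, Gapdh, Eno1, Ldha and Ldhb. Without the 18 libraries Bnip3 (1.31, adjusted p = 3.5e-05) and Ldhb (1.67, adjusted p = 3.1e-09) remained called from D5 to D7 in WT, and Hk2 (adjusted p = 0.13) and Ankrd37 did not. None of the 6 members called from D9 to D11 in WT was called without them.

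MUT libraries, all NFIAn, went through the same steps with their own values. From D5 to D7, 3 HIF genes were higher and 3 lower of 16, and 3 glycolytic genes were higher and 1 lower of 17, against 16.5% and 14.3% over all genes. Bnip3 rose from 1563, 2125 and 2892 to 3976, 5809 and 8919 with no overlap (1.47 ± 0.17, adjusted p = 4.4e-09). Egln3 (1.29 ± 0.19), Ankrd37 (1.08 ± 0.36), Ldhb (2.07 ± 0.17, adjusted p = 1.9e-13), Tpi1 (0.69 ± 0.19) and Gpi1 (0.40 ± 0.12) rose. Slc2a3 (-1.78 ± 0.38), Slc2a1 (-0.73 ± 0.15), P4ha2 (-0.81 ± 0.31) and Hk2 (-0.59 ± 0.20) fell. Without the 18 libraries with high totals, the calls of Ankrd37, P4ha2, Tpi1 (adjusted p = 0.056) and Hk2 (adjusted p = 0.054) end. Those of Ankrd37 and P4ha2 also end when any of 5 and any of 12 single libraries are left out (adjusted p up to 0.087 and 0.17), and that of Hk2 without MUT D5 pM replicate 3 (adjusted p = 0.055).

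From D7 to D9 in MUT, 1 HIF gene was higher and 2 were lower, and 3 glycolytic genes were higher and none lower, against 4.93% and 4.78% over all genes. Bnip3 rose to 9240, 10062 and 13960, above every MUT D7 library (0.84 ± 0.21, adjusted p = 0.0065). Slc2a1 (-1.02 ± 0.18) and Vegfa (-0.95 ± 0.26) fell, and Ldhb (1.03 ± 0.21), Slc16a3 (0.67 ± 0.18) and Pfkl (0.68 ± 0.22, adjusted p = 0.042) rose. The Pfkl call ends when any of 10 libraries is left out (adjusted p up to 0.1), that of Slc16a3 without MUT D9 p1 replicate 1, and that of Vegfa without MUT D9 p1 replicate 3 or MUT D9 pM replicate 3.

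From D9 to D11 in MUT, 3 HIF genes were higher and 1 lower and no glycolytic gene was called by limma, against 5.52% and 3.67% over all genes. At an unadjusted p under 0.05, 6 glycolytic genes were higher, with no share over all genes given at that threshold. Egln3 (1.44 ± 0.25, adjusted p = 0.00012), P4ha1 (0.89 ± 0.20) and Slc2a3 (1.71 ± 0.50, adjusted p = 0.024) rose and Slc2a1 fell again (-1.01 ± 0.19, adjusted p = 0.00047). Without D11 replicate 3, Slc2a3 stood at 0.41 (adjusted p = 0.80) and P4ha1 at 0.61 (adjusted p = 0.15), while Ldhb became called (0.96, adjusted p = 0.02). The Slc2a3 call also ends when any of 5 single libraries is left out (adjusted p up to 0.16). Leaving out any one of the 3 replicate 2 libraries of MUT D11 gave 7 called members in place of 4. The difference in change between the genotypes was tested for D5 to D7 and for D7 to D9. No member was called in either by limma, where 0.00636% of all genes were called in each. edgeR and DESeq2 called 0 as well, and at an unadjusted p under 0.05 there were 1 and 4 members, again without a share over all genes.

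The comparison of the genotypes within a day is between NFIAn libraries at D5, D7 and D9. At D5 and D7 no member was called by limma, against 0.458% of all genes in either direction at D5 and 0.776% higher and 1.25% lower at D7. At an unadjusted p under 0.05 there were 2 members at D5, 1 in each direction, and 7 at D7, all higher in MUT. The share over all genes at that threshold is not given, so nothing particular to the members is read from these counts. edgeR called 0 on both days, and DESeq2 called 0 at D5 and 1 at D7. Bnip3 differed by 0.20 (adjusted p = 0.93) at D5 and 0.39 (adjusted p = 0.28) at D7, Pdk1 by 0.35 (adjusted p = 0.82) and 0.55 (adjusted p = 0.21), and Pgk1 by 0.07 (adjusted p = 1) and 0.35 (adjusted p = 0.12). The absence of calls at D7 depends on the model. With a replicate block within each day, added after seeing the data, limma called Bnip3, Pdk1 and Pgk1 at D7 (adjusted p = 0.0047, 0.0037 and 4.3e-05) and not at D5.

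At D9 the 5 MUT libraries and 8 WT NFIAn libraries differed in 4 members, all higher in MUT, against 0.356% higher and 0.344% lower over all genes. Bnip3 was 7984, 6212 and 5768 in WT p1, 5215, 4495 and 4619 in WT p2 and 3694 and 4166 in WT pM. In MUT it was 13960 and 12033 in p1, 9240 in the 1 library of p2, and 10062 and 9399 in pM. Every MUT library lay above every WT library, and the difference was 2.11-fold (1.08 ± 0.22, adjusted p = 0.0046). That call held with each of 12 libraries left out in turn (the 1 MUT library of p2 could not be left out), with correlated libraries (1.10, adjusted p = 0.011) and under each other setting that could be fitted. Pfkl, at 2620 to 4495 in WT and 5818 to 7745 in MUT, was 1.89-fold higher (0.91 ± 0.23, adjusted p = 0.035), also without overlap. Slc2a1 was 1.79-fold higher (0.84 ± 0.18, adjusted p = 0.011) and Slc16a3 1.74-fold higher (0.80 ± 0.19, adjusted p = 0.024). The calls of Pfkl, Slc16a3 and Slc2a1 end when any of 10, 5 and 2 libraries are left out (adjusted p up to 0.11, 0.11 and 0.087).

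The count of 4 at D9 falls to 2 without MUT D9 p1 replicate 1, MUT D9 pM replicate 1, MUT D9 pM replicate 3 or WT D9 p2 replicate 2, and to 1 without WT D9 pM replicate 1. The 1 MUT library of D9 p2 is among those with high totals, so the comparison could not be fitted without them, and that library was taken to vary like the other groups. The medians at D9 were 0.42 for the 16 HIF genes and 0.47 for the 17 glycolytic genes, against 0 over all genes. Hif1a differed by 0.12 (adjusted p = 0.92), Pdk1 by 0.74 (adjusted p = 0.27), Pgk1 by 0.47 (adjusted p = 0.16) and Ldha by 0.58 (adjusted p = 0.45). These too depend on the model. Under the replicate block within each day, limma called Pdk1 (0.77), Pgk1 (0.48) and Ldha (0.58) at D9 and not Hif1a (0.15).

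At D11 the gates differ, since MUT is NFIAn and WT is NFIAp, so that genotype and gate cannot be told apart. Of the HIF genes 2 were higher and 1 lower in MUT, and of the glycolytic genes 5 were higher, against 1.80% and 2.34% over all genes. The medians were 0.40 for each list, against 0 over all genes. Slc2a1 was 2214, 2141 and 1623 in replicate 2 of WT (p1, p2, pM) and 2638, 2706 and 2637 in replicate 3. MUT gave 3472, 2507 and 4385 in replicate 2 and 7599, 3193 and 4440 in replicate 3 (0.80 ± 0.18, adjusted p = 0.0035). MUT was higher in every domain and number, although the lowest MUT library lies within the WT range.

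Pfkl was 4256, 3404 and 3162 in replicate 2 of WT and 8077, 7371 and 9788 in that of MUT, and 9354, 6932 and 6242 against 12100, 13006 and 10095 in replicate 3 (0.94 ± 0.22, adjusted p = 0.0067). Slc2a3 was 3.06-fold higher in MUT (1.61 ± 0.47, adjusted p = 0.033), Pkm 1.71-fold (0.78 ± 0.22, adjusted p = 0.027), Slc16a3 by 0.80 ± 0.18 (adjusted p = 0.0055), Pgam1 by 0.58 ± 0.14 (adjusted p = 0.0062) and Gpi1 by 0.50 ± 0.14 (adjusted p = 0.03). Egln3 was lower in MUT (-0.81 ± 0.23, adjusted p = 0.032). Bnip3, called at D9, stood at 0.57 ± 0.21 (adjusted p = 0.13) at D11. That absence of a call depends on the model. In the limma fit with a replicate block within each day, added after seeing the data, Bnip3 was called at D11 (0.57, adjusted p = 0.00046).

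Each of the 8 calls at D11 ends on leaving out at least 1 library. The count falls to 1 without WT D11 pM replicate 2, to 2 without WT D11 p2 replicate 2 or MUT D11 p1 replicate 3, and to 3 without WT D11 p1 replicate 2. It falls to 4 without MUT D11 p2 replicate 3. Of the 8, only Slc2a1 and Pgam1 then remained called, and the others counted were newly called. Without D11 replicate 3, Pfkl (1.22, adjusted p = 0.007), Pgam1 (0.68, adjusted p = 0.02) and Slc16a3 (0.81, adjusted p = 0.036) remained called. Slc2a1 (0.77, adjusted p = 0.065), Slc2a3 (1.09, adjusted p = 0.35) and Egln3 (-0.68, adjusted p = 0.37) did not. With correlated libraries Pfkl alone was called (adjusted p = 0.045). Astroglial markers summed to 71705 to 186993 in WT D11 and 21976 to 79095 in MUT D11, and Aldoc was lower in MUT (-2.38 ± 0.26, adjusted p = 9.9e-09). The part of these in the members' differences was not tested.

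**Figure D5:**
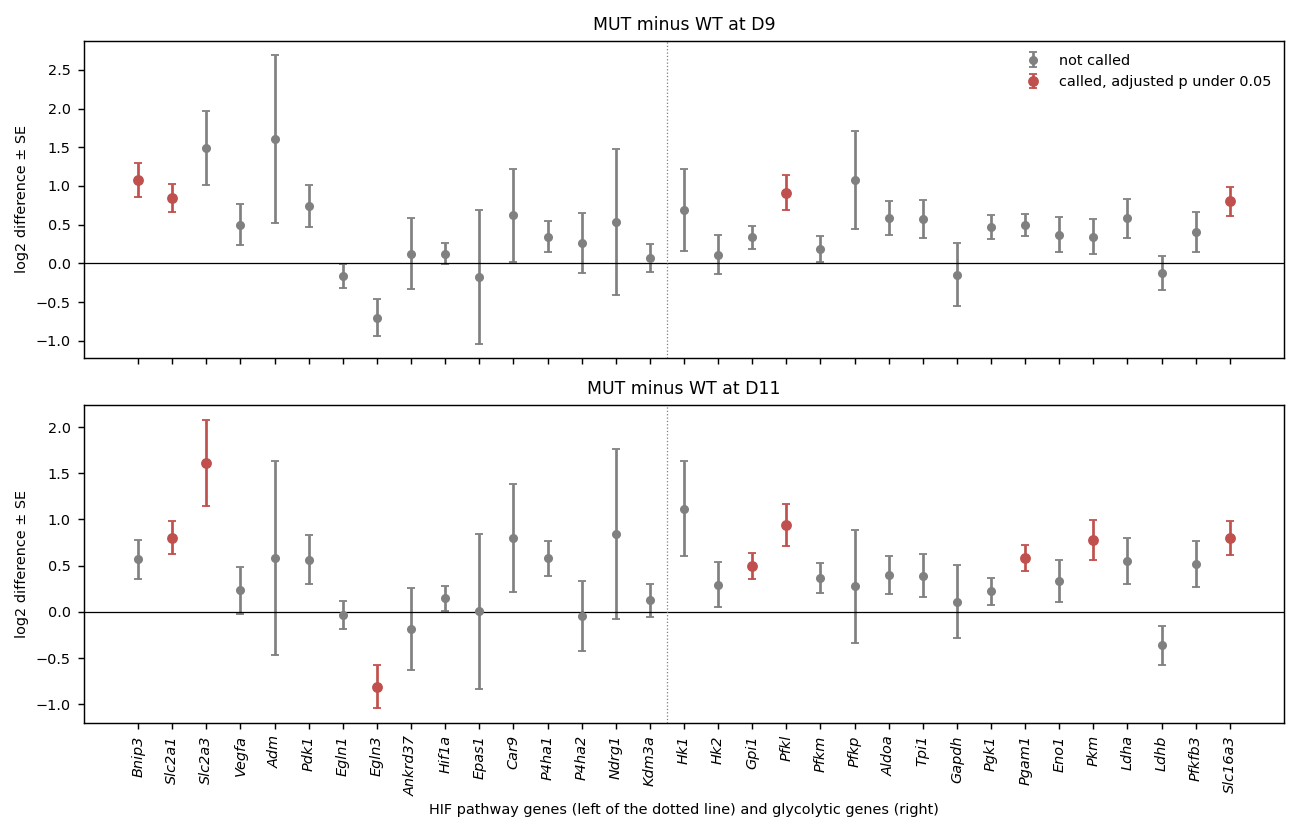
Log2 difference between MUT and WT for each member at D9 and D11, as the estimate with its SE, with called members in red. Bnip3, Slc2a1, Slc16a3 and Pfkl are called at D9, and Slc2a1, Slc2a3, Egln3, Gpi1, Pfkl, Pgam1, Pkm and Slc16a3 at D11, with Egln3 the only one below 0.

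MUT and WT libraries of one day, domain and number were also set against each other, as a description of libraries already used above. At D11 the gates of each pair differ. At D5, 8 members were higher in MUT in all 8 pairs, against 2.31% of all genes (3.93% were lower in all). They were Vegfa, Aldoa, Pgk1, Pgam1, Eno1, Ldha, Pfkfb3 and Slc16a3. At D7 there were 5 in all 9 pairs, against 5.15% of all genes (2.50% lower), namely Hif1a, P4ha1, Aldoa, Tpi1 and Pgk1. At D9 there were 14 in all 5 pairs, against 6.92% of all genes (7.32% lower), and at D11 12 in all 6 pairs, against 5.26% (7.74% lower). No member was lower in all pairs at D5, D7 or D9, and Egln3 alone was at D11. The median difference over pairs for Bnip3 was 1.06 (0.81 to 1.45) at D9 and 0.59 (0.11 to 0.99) at D11, and for Pfkl 0.79 (0.75 to 1.03) and 0.92 (0.37 to 1.63).

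The isozyme shares differed between the genotypes in level. The Ldhb share per kb was 7.74% (6.97 to 10.8%) at MUT D5, 20.7% (16.9 to 31%) at D7, 29.6% (26.2 to 32.8%) at D9 and 37.8% (25.3 to 45.1%) at D11, and the D9 range meets that of WT NFIAn libraries only at its upper edge. Ldhb itself was 11731, 15197 and 20415 at MUT D9, overlapping the WT range of 12898 to 23371, while Ldha was 58968, 82187 and 88749 against 35146, 52162 and 68232. The Slc16a3 share reached 76.1% (71.8 to 80.5%) at MUT D11. At D11 the Ldhb share was 52.1 to 66.2% in replicate 2 and 40.9 to 53% in replicate 3 of WT, and 40.8 to 45.1% and 25.3 to 34.8% in those of MUT. These shares were not tested.

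The 2 gates were compared at WT D9 in p2 and pM, 6 NFIAp against 5 NFIAn libraries. No member was called by limma, against 0.204% of all genes. edgeR called 0 and DESeq2 called 1, and 2 members had an unadjusted p under 0.05, for which no share over all genes is given. Slc2a1 was the nearest, with a mean of 4519 in NFIAn and 2627 in NFIAp (-0.71 ± 0.19, adjusted p = 0.10). It was called by DESeq2 and with correlated libraries (-0.73, adjusted p = 0.0015), and 1 member was called without WT D9 p2 NFIAn replicate 1 or WT D9 pM NFIAn replicate 1.

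Among domains, over WT libraries, Egln3 was the only member called by the main model. It was higher in p2 than in p1 (0.82 ± 0.17, adjusted p = 0.0038, means 686.1 and 308.0), against 1.28% higher and 0.554% lower over all genes. It was also higher in pM than in p2 (0.68 ± 0.18, adjusted p = 0.028, means 986.6 and 686.1), against 0.687% and 1.77% over all genes. At D11 the WT values in p1, p2 and pM were 668, 2183 and 2742 in replicate 2 and 650, 1525 and 2800 in replicate 3. MUT gave 447, 881 and 2453 in replicate 2 and 550, 448 and 1601 in replicate 3, where p2 lay below p1. The call between pM and p2 ends when any of 10 libraries is left out (adjusted p up to 0.13). Without the 18 libraries with high totals neither domain call holds (adjusted p = 0.14 for p2 against p1 and 0.086 for pM against p2). For the 32 other members the domains gave no call by the main limma model in either comparison, and Bnip3 had an adjusted p of 0.71 and 1. Under the replicate block within each day, added after seeing the data, limma also called Ldhb (-0.44, adjusted p = 0.00027) and Hk2 (-0.39, adjusted p = 0.048) for p2 against p1. It also called Slc2a1 (0.30, adjusted p = 0.047) for pM against p2.

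Neighbouring genes of the pathway, from lists chosen with earlier results of these data known, moved in both directions. Of 30 further HIF targets tested, 12 were higher and 4 lower from WT D5 to D11, with a median of 0.32, against 25.1% higher and 22.8% lower over all genes. Bhlhe40, a transcriptional repressor (4.46 ± 0.58), Mxi1, an antagonist of MYC (1.76 ± 0.22), Ddit4, an inhibitor of mTORC1 (1.32 ± 0.18), and Bnip3l, the mitophagy partner of Bnip3 (1.01 ± 0.13), rose. Stc2 (-4.15 ± 0.49) and Hmox1, a haem oxygenase (-1.27 ± 0.20), fell. From D9 to D11 within NFIAp 4 rose, among them Lox, a collagen cross-linking enzyme (3.51 ± 0.91), against 6.16% of all genes. At D11 2 were higher and 1 was lower in MUT, against 1.80% and 2.34% of all genes. Without D11 replicate 3, 1 rose from D9 to D11, Lox stood at 2.88 (adjusted p = 0.12), and 1 was higher and 1 lower in MUT at D11. Of the HIF machinery, Vhl (0.93 ± 0.14) and Egln2 (0.65 ± 0.14) rose and Arnt (-0.72 ± 0.25, adjusted p = 0.014) and Cul2 (-0.68 ± 0.19), a scaffold of the VHL ligase, fell from D5 to D11.

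Pyruvate has a second route, into the mitochondrion. Of 12 genes on that route, 4 rose and 4 fell from WT D5 to D11, among them the pyruvate carrier gene Mpc1 (3.11 ± 0.36, adjusted p = 6.5e-10), which rose, and Dlat (-0.94 ± 0.15) and Dld (-0.48 ± 0.12) of the pyruvate dehydrogenase complex, which fell. Of 16 genes of the tricarboxylic acid cycle, 5 fell and none rose, for example Suclg2 (-1.57 ± 0.13, adjusted p = 6.1e-14) and Dlst (-0.85 ± 0.14). Of 7 genes of the pentose phosphate pathway, 2 were higher in MUT at D11, Tkt (0.63 ± 0.15, adjusted p = 0.0059) and Pgd (0.42 ± 0.10, adjusted p = 0.0068). Over all genes 1.80% were higher and 2.34% lower in MUT at D11. Without D11 replicate 3 the Pgd call ends (0.45, adjusted p = 0.057). Each of these counts over D5 to D11 is to be read against 25.1% higher and 22.8% lower over all genes. Nothing particular to a list is read from these counts.

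Some of the members were low. Ndrg1 lay between 0 and 194, Adm between 0 and 568 (0 in 10 libraries), Car9 at 0 in 53 libraries and Pfkp between 1.41 and 245. Among the glycolytic genes Gapdh, Aldoa, Eno1, Ldha, Pfkm and Pfkp were called in no comparison by the main model. They were not all level, and Gapdh ranged from 36635 to 293940. Under the replicate block within each day, limma called Aldoa and Ldha higher in MUT at D7, D9 and D11 and Eno1 at D9 and D11. Gapdh, Pfkm and Pfkp were not called in that fit. Within groups, a part of the spread went with genotype, day and replicate number together. The share of the within-group variance that went with genotype, day and number had a median of 54.5% over all genes, 63.3% over the HIF genes and 84.9% over the glycolytic genes. It was 93.2% for Gapdh, 92.8% for Ldhb, 89.7% for Bnip3, 44.5% for Egln3 and 43.4% for Hif1a, and 31% and 32.3% for the low genes Epas1 and Ndrg1. Some share arises without any link between libraries, and that baseline was not computed. When libraries of one genotype, day and number were allowed to correlate, calls of the following members ended. MUT and WT libraries of one number were not linked in that fit. They were Hk2, Kdm3a, Ankrd37 and Car9 for WT D5 to D7 (adjusted p between 0.056 and 0.14), Slc2a3 and P4ha2 for WT D7 to D9 (0.063 and 0.13), and Adm, Pdk1, P4ha1 and Hk1 for WT D9 to D11 (between 0.055 and 0.13). For WT D5 to D11 they were P4ha2, Gpi1 and Pgam1 (between 0.059 and 0.12). In MUT they were Ankrd37, P4ha2 and Hk2 for D5 to D7 (between 0.055 and 0.16), Vegfa, Pfkl and Slc16a3 for D7 to D9 (between 0.074 and 0.11) and Slc2a3 and P4ha1 for D9 to D11 (0.11 and 0.072). Between the genotypes they were Slc2a1, Pfkl and Slc16a3 at D9 (between 0.064 and 0.15) and all but Pfkl at D11 (between 0.074 and 0.36).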

How the data were processed

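Per the submitters' processing notes, the authors used the genome build mm10 and DESeq2; their versions are not given in the sources used here. What the authors deposited is a signal, a normalised read count: each count divided by its library's size factor. Dividing by the value of 1 read gave whole numbers within 0.01 for 100% of values in the 66 libraries, so reads could be recovered. From these values, log2(normalised count + 1) was fitted with limma 3.58.1 (R 4.3.3, variance trend) as 26 group means over all libraries, which share one estimate of the spread. Genes needed at least 10 in at least 2 libraries, and p-values were adjusted over all 15714 by the Benjamini-Hochberg method. The method was tested on simulated data. Those counts were drawn independently for each library, so that test cannot cover spread shared by libraries of one replicate number. Folds are on the log2(value + 1) scale, which understates changes of low genes. Contrasts average differences within domains. edgeR 4.0.16 and DESeq2 1.42.0 on recovered reads, other filters, pseudocounts and scalings, and correlated libraries were alternatives. Members and lists were chosen with earlier results of these data known. In each comparison the text names called members by size of difference, up to 6 of each class and direction, and Hif1a, Vegfa, Slc2a1, Pdk1, Bnip3, Hk2, Pgk1, Ldha and Pkm. The pair counts and replicate values were added after the D11 gap was seen.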

Additional observations from a re-analysis of the deposited data

How the results depend on the processing

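No called member reversed its direction under any setting tried. Fitting only the compared groups gave 1 called member in place of 6 for WT D9 to D11, 3 in place of 6 for MUT D7 to D9, 1 in place of 4 for MUT D9 to D11, 1 in place of 0 for the genotypes at D5, 2 in place of 4 at D9 and 0 in place of 8 at D11, and 0 in place of 1 for each domain comparison. Correlated libraries (correlation 0.375) gave 5 in place of 9 for WT D5 to D7, 2 for WT D9 to D11, 3 for MUT D7 to D9, 2 for MUT D9 to D11, 1 for the gates, 1 for the genotypes at D9, 1 at D11 and 2 for p2 against p1. On recovered reads edgeR and DESeq2 called 9 and 10 members for WT D5 to D7 (9 by limma) and 24 and 23 for WT D5 to D11 (20 by limma), and DESeq2 gave 1 for the gates and 1 for the genotypes at D7. Leaving out the libraries with high totals gave 0 for WT D9 to D11 and 0 for both domain comparisons, and MUT D9 could not be fitted without them. D11 replicate 3 left out gave 1 for WT D9 to D11, 3 for the genotypes at D11 and 0 for pM against p2. D11 replicate 2 left out gave 10 for WT D9 to D11, 14 for MUT D9 to D11, 2 for the genotypes at D11 and 0 for pM against p2. Scaling to library totals gave 2 for p2 against p1 and 0 for pM against p2. The median of all genes then stood at 0.302 for WT D9 to D11 (0.049 as deposited), 0.278 for MUT D9 to D11 (0.05), -0.297 for MUT D5 to D7 (-0.034), -0.17 for WT D7 to D9 (-0.033), -0.144 for WT D5 to D7 (-0.016), 0.101 for the genotypes at D11 (-0.004) and -0.126 and 0.161 for the changes by genotype (0.021 and 0). The share of all calls that were higher went from 60.8% to 74.8% in WT D9 to D11, from 53.5% to 35.5% and from 50.8% to 61.7% in the first 2 MUT steps, from 71.9% to 100% for the gates, from 50.9% to 61% for the genotypes at D9 and from 43.5% to 32.8% at D11. Leaving out 1 library at a time gave 1 to 8 calls for WT D9 to D11, 3 to 7 for MUT D9 to D11, 0 to 1 for the gates, 1 to 4 for the genotypes at D9, 1 to 9 at D11 and 0 to 1 for pM against p2. The cause of these shifts was not tested.

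The main model takes the replicate numbers as unpaired and holds no term for them. Deviations of libraries that share a number were set against a minimum correlation of 0.1. MUT and WT libraries of one day, domain and number passed it in 18 of 27 pairs (0.031 to 0.401). Domains and gates within a day passed it in 19 of 25 pairs (0.013 to 0.395), so a part of the spread went with the number. Where both groups of a pair hold 2 libraries, as at D11, their deviations mirror each other. Both replicates then give the same correlation, so these counts hold some values more than once. With the replicate block, MUT D9 to D11 had 8 called members in place of 4 and the genotypes at D7 had 1 in place of 0. With a replicate block within each day, an alternative added after seeing the data, the gates had 2, the genotypes 1 at D5, 9 at D7, 12 at D9 and 19 at D11, and the domains 3 for p2 against p1 and 2 for pM against p2. The share of all genes called is not given beside these counts or those of the paragraph before. Nothing particular to the members is therefore read from them.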
